A study of Danio rerio with 12 samples.

Results

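The aminoacyl-tRNA synthetases are the enzymes that join each amino acid to its transfer RNA (tRNA), and their genes were followed here in zebrafish embryos with and without a mutation of mycn, a transcription factor gene of the Myc family. Members were the genes whose symbol is the letter of an amino acid followed by "ars", with an optional digit and a or b, or is eprs. The rule found 35 of 31465 genes. A symbol ending in 2 marks the mitochondrial enzymes (14 genes) and the other 21 were taken as cytosolic. The names table calls the identifier of hars (ENSDARG00000003693) HARS2, the mitochondrial histidine enzyme, so its place among the cytosolic genes is uncertain. With hars taken as mitochondrial, 18 of 20 cytosolic and 6 of 15 mitochondrial genes had values above 0 between the genotypes at 48 hpf, and the cytosolic minus the mitochondrial median change with age in wild type was 0.27, against 0.18 as counted here. All 35 passed the filter on low counts, which left 21068 genes in the tests. EARS2, written in capitals in the table, and tarsl2, a threonine enzyme, are outside the rule and are given separately.

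Most synthetases recognise 1 amino acid, activate it with ATP and transfer it to the matching tRNA, which the ribosome then uses. Cytosolic translation and translation inside mitochondria use separate sets of tRNA, and most amino acids therefore have a cytosolic and a mitochondrial enzyme encoded by different nuclear genes. Several cytosolic enzymes, those for isoleucine, leucine, methionine, glutamine, arginine, lysine and aspartate and the joint enzyme for glutamate and proline, sit in a large complex held together by the scaffold proteins of the aimp genes and eef1e1. In human cells the glycine and lysine genes each make both a cytosolic and a mitochondrial enzyme, and mitochondrial glutamine tRNA is charged through the GatCAB amidotransferase rather than by an enzyme of its own. In mammals many cytosolic synthetase genes are raised by the transcription factor ATF4 when amino acids are short, and synthetase genes are often counted among the growth genes that Myc proteins can raise.

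The samples were 4 groups of 3 libraries of total RNA from embryos: wild type of strain AB at 48 and at 72 hours post fertilization (hpf), and embryos labelled as mycn mutant at the same ages. The labels name neither the allele nor whether a library held 1 embryo, a pool or a clutch, so p-values measure the spread between these libraries, which may be technical. Library totals ran from 14793715 to 19732340 counts. mycn RNA was higher in the mutant labelled groups, at 71.2, 90.1 and 60.8 CPM (counts relative to library size, scaled by TMM factors) in wild-type replicates 1 to 3 against 203, 213 and 251 CPM at 48 hpf, and at 76.3, 75.6 and 79.8 against 158, 158 and 141 CPM at 72 hpf. The groups did not overlap at either age (log2 fold changes 1.59 and 0.98, adjusted p = 5.45e-06 and 0.00144). The labels do not say what the mutation does to the transcript, and these samples are called mutant-labelled from here on. The spread within groups was largest in wild type at 48 hpf, with a biological coefficient of variation of 0.200 against 0.136 in mutant-labelled libraries of that age and 0.0704 and 0.0848 at 72 hpf. In RNA of whole embryos, fewer cells of a type and less RNA per cell cannot be told apart.

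Cytosolic members had between 130 and 4468 counts in a library and mitochondrial members between 32 and 895. The median SD of log2 CPM within a group was 0.155, 0.116, 0.077 and 0.07 for the cytosolic genes in wild type and mutant-labelled libraries at 48 hpf and then at 72 hpf, in that order. For the mitochondrial genes it was 0.175, 0.202, 0.137 and 0.119, so these genes were measured less precisely. Levels of different genes are not compared, since no transcript lengths were at hand.

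At 48 hpf no synthetase gene passed the test between the genotypes. Most cytosolic members had small positive values, with 19 of 21 above 0 and a median log2 fold change of 0.10, while 5 of 14 mitochondrial members were above 0 with a median of -0.06. The median over all tested genes was -0.00, and 49.5% of them were above 0. Tested by quasi-likelihood in edgeR, and with p-values adjusted by Benjamini-Hochberg over all genes, 0 of 35 members were called higher and 0 lower at adjusted p under 0.05, against 1.04% and 2.0% of all tested genes. DESeq2 and limma-voom also called 0 members. Before adjustment 5 members were higher and 1 was lower at p under 0.05, where 7.94% and 9.41% of all genes were. The libraries of the genotypes did not overlap for 5 members, all higher in mutant-labelled embryos, against 7.69% of all genes in that direction. No member was lower in every mutant-labelled library, and 9.08% of all genes were.

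The member of smallest p at 48 hpf was nars (ENSDARG00000061100), the cytosolic asparagine enzyme. It stood at 64.1, 70.8 and 57.1 CPM in wild-type and 84.5, 76.9 and 86.2 CPM in mutant-labelled replicates (log2 fold change 0.37 with SE 0.13 and adjusted p = 0.128, 95% interval 0.10 to 0.63). All 3 mutant-labelled libraries lay above all wild-type ones. farsb, the beta subunit of the cytosolic phenylalanine enzyme, stood at 40.9, 37.7 and 35.6 against 45.0, 46.5 and 45.5 CPM (log2 fold change 0.26 with SE 0.09 and adjusted p = 0.134). These libraries did not overlap either. With library totals alone in place of TMM scaling farsb passed (log2 fold change 0.35, adjusted p = 0.0479). The median of all genes was 0.09 on that scale. The alpha subunit farsa stood at 66.8, 74.8 and 52.3 against 75.9, 61.6 and 69.8 CPM, with overlapping groups (log2 fold change 0.10 with SE 0.13 and adjusted p = 0.765), and its sign turned without wild-type 48 hpf replicate 3 (-0.02).

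The mitochondrial cysteine gene cars2 stood at 7.77, 9.24 and 12.3 CPM in wild type against 13.4, 14.5 and 11.9 CPM in mutant-labelled libraries (log2 fold change 0.44 with SE 0.17 and adjusted p = 0.176). Wild-type replicate 3 lay within the mutant-labelled range, and without that library cars2 passed (log2 fold change 0.65, adjusted p = 0.0329). The cytosolic aspartate gene dars was the single member below 0 at an unadjusted p under 0.05, at 142, 166 and 127 against 111, 119 and 129 CPM (log2 fold change -0.28 with SE 0.11 and adjusted p = 0.182). Its groups overlapped, since mutant-labelled replicate 3 exceeded wild-type replicate 3. The glutamine gene qars and the isoleucine gene iars also had no overlap (log2 fold changes 0.24 and 0.20, adjusted p = 0.23 and 0.336).

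**Figure D1:**
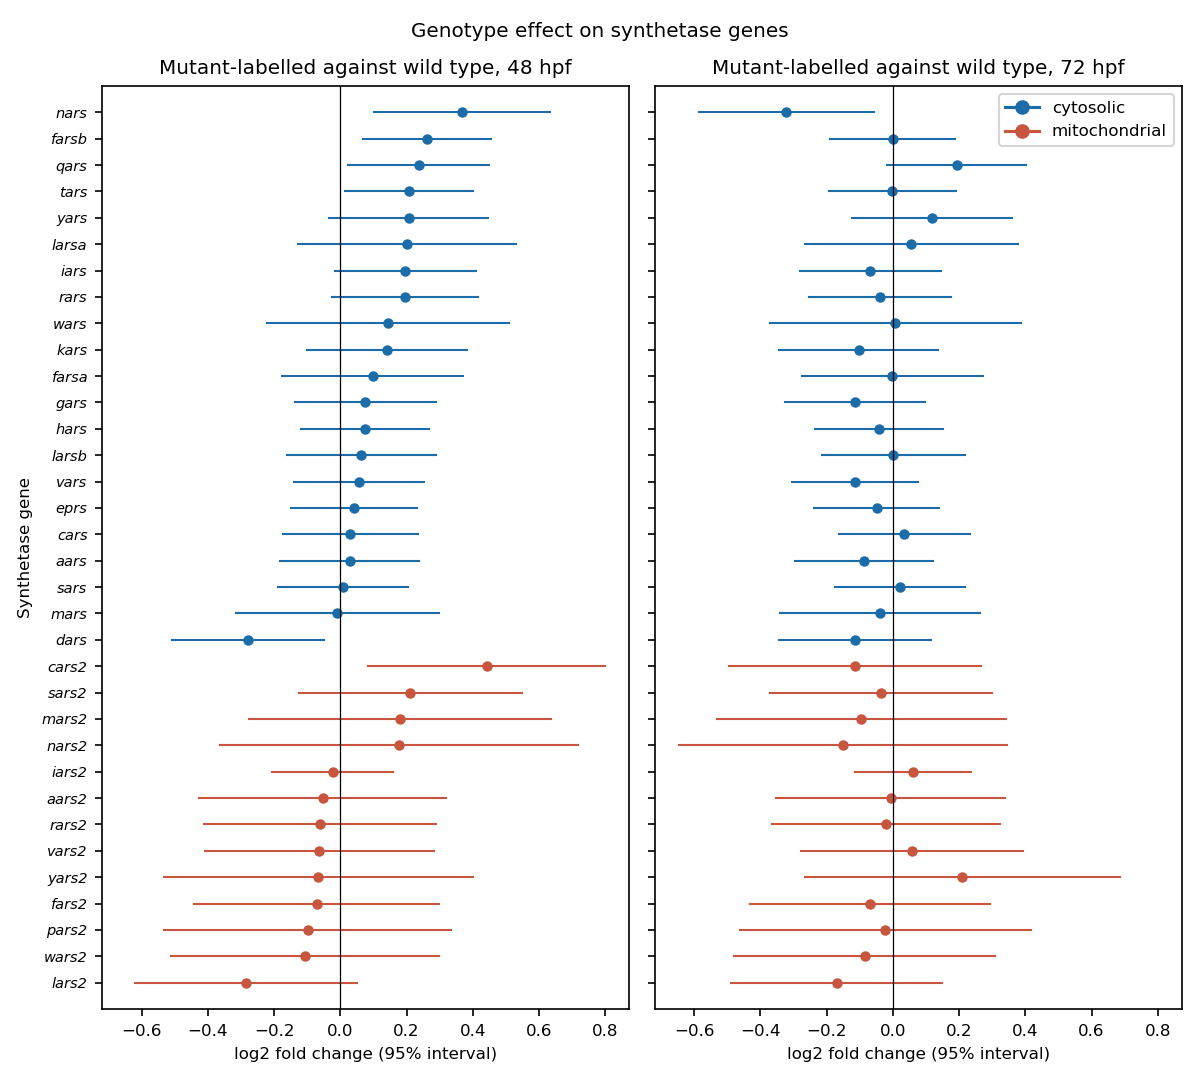
Log2 fold change of the synthetase genes, all but 1 of the mitochondrial ones drawn, between mutant-labelled and wild-type embryos at 48 hpf (left) and 72 hpf (right), from edgeR's model of 12 libraries. Points are estimates, lines their 95% intervals, blue cytosolic and red mitochondrial genes, ordered by the value at 48 hpf; 19 of 21 cytosolic genes lie above 0 at 48 hpf and 7 of 21 at 72 hpf.

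The lean of the cytosolic genes at 48 hpf moved with single libraries. As the median over the cytosolic members of log2 CPM centred per gene, wild-type replicates 1 to 3 had -0.16, -0.02 and -0.31, against 0.09, -0.04 and -0.03 in the mutant-labelled replicates. Wild-type replicate 3 was the lowest of all 12 libraries, and wild-type replicate 2 lay above 2 mutant-labelled libraries. The mitochondrial members stood at -0.09, 0.07 and -0.09 against 0.06, -0.16 and 0.00. The difference between the cytosolic and the mitochondrial median fold change was 0.15, and it was 0.06 without wild-type 48 hpf replicate 3 and 0.04 without mutant-labelled 48 hpf replicate 1. Among the cytosolic genes, 7 of 9 members of the complex and 12 of 12 outside it were above 0, with medians of 0.14 and 0.09.

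**Figure D2:**
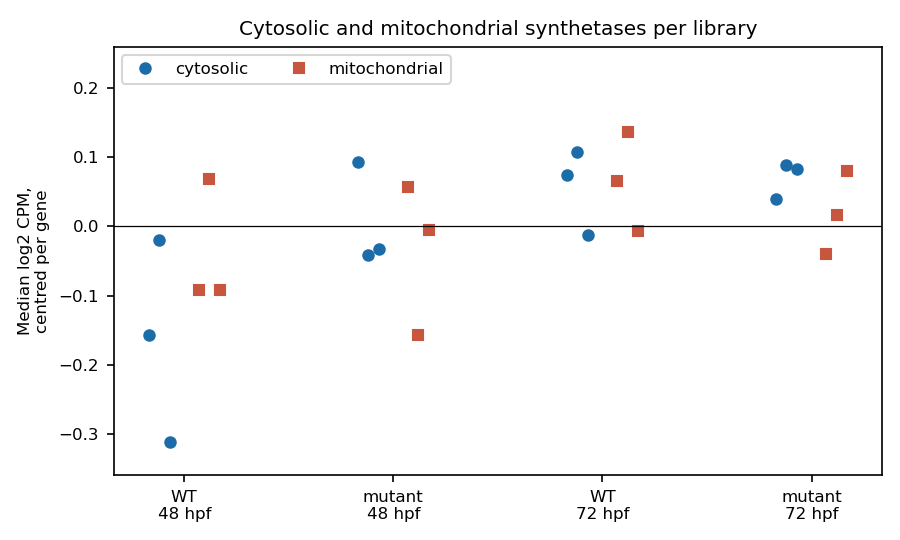
Median over the 21 cytosolic (blue circles) and 14 mitochondrial (red squares) synthetase genes of log2 CPM centred per gene, for each of the 3 libraries of each group. Wild-type 48 hpf replicate 3 has the lowest cytosolic value, -0.31, and the genotypes overlap at both ages.

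At 72 hpf no member passed either. The majority of cytosolic genes was now below 0 (14 of 21), while the mitochondrial genes were mostly below 0 at both ages (9 of 14 at 48 hpf and 10 of 14 at 72 hpf). Of 35 members 11 were above 0, against 53.0% of all genes, with medians of -0.04 over the cytosolic and -0.03 over the mitochondrial genes and 0.01 over all genes. edgeR called 0 higher and 0 lower, with backgrounds of 0.133% and 0.422%, and DESeq2 and limma-voom called 0. Before adjustment 0 members were higher and 1 was lower at p under 0.05, where 3.67% and 4.08% of all genes were. The libraries did not overlap for 4 members in the higher direction (qars, yars, yars2 and iars2) and for 3 in the lower (vars, kars and lars2), against 11% and 9.14% of all genes.

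Here nars again had the smallest p, now with the opposite sign. It stood at 93.8, 78.3 and 71.4 CPM in wild-type and 59.3, 59.0 and 76.6 CPM in mutant-labelled libraries (log2 fold change -0.32 with SE 0.12 and adjusted p = 0.491), and mutant-labelled replicate 3 lay above wild-type replicate 3. qars stood at 49.8, 55.5 and 46.8 against 57.1, 59.7 and 57.1 CPM, all 3 mutant-labelled libraries higher (log2 fold change 0.19 with SE 0.10 and adjusted p = 0.703). The valine gene vars stood at -0.12 in log2 (SE 0.09, adjusted p = 0.902) and the glycine gene gars at -0.11 (SE 0.10, adjusted p = 0.928). The subunits farsa and farsb had values of -0.00 (adjusted p = 1 for each), whose sign turned under several settings.

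The intervals show what size of difference these libraries leave room for, under 1 spread per gene shared by all 12 libraries. The coefficients of variation were 0.200 and 0.136 at 48 hpf and 0.0704 and 0.0848 at 72 hpf. The intervals may therefore be too narrow at 48 hpf and too wide at 72 hpf. Fits of only the 6 libraries compared called 74 genes against 641 at 48 hpf, and 793 against 117 at 72 hpf. At 72 hpf, the 95% interval of 20 of 21 cytosolic members lay within 0.5 of 0 on the log2 scale, a 1.41-fold difference, and that of 11 of 14 mitochondrial members did. At 48 hpf these counts were 17 and 5. At both ages the intervals of all 35 members lay within 1 on the log2 scale.

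Averaged over both ages, edgeR, DESeq2 and limma-voom again called 0 members, with backgrounds in edgeR of 0.655% higher and 1.41% lower. Before adjustment, 1 member was higher and 1 lower at p under 0.05 (backgrounds 7.22% and 8.33%). These were qars (log2 fold change 0.21 with SE 0.07 and adjusted p = 0.14) and dars (log2 fold change -0.20 with SE 0.08 and adjusted p = 0.217). The mitochondrial leucine gene lars2 had -0.23 (SE 0.11, adjusted p = 0.33) and farsb 0.13 (SE 0.06, adjusted p = 0.339). At the extremes, the intervals of the averaged effect reached from -0.36 to 0.36 among cytosolic and from -0.46 to 0.43 among mitochondrial members.

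The test of whether the genotype effect differed between the ages called 0 members in edgeR and limma-voom and 1 in DESeq2, with edgeR backgrounds of 0.285% higher and 0.185% lower. Before adjustment, 0 members were higher and 2 were lower at p under 0.05, against 5.79% and 4.59% of all genes. The member called in DESeq2 was nars, whose genotype effect was 0.69 lower at 72 than at 48 hpf on the log2 scale (SE 0.18, adjusted p = 0.116 in edgeR and 0.0347 in DESeq2). Without wild-type 48 hpf replicate 2 edgeR called it as well (log2 difference -0.78, adjusted p = 0.0435). cars2 had -0.56 (SE 0.25, adjusted p = 0.443), iars -0.26 (SE 0.14, adjusted p = 0.558) and farsb -0.26 (SE 0.13, adjusted p = 0.496).

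Followed by age instead, nars was the single member called in opposite directions in the genotypes. How many of all genes were called so was not counted. From 48 to 72 hpf it rose in wild type (log2 fold change 0.34 with SE 0.12 and adjusted p = 0.0221) and fell in mutant-labelled embryos (log2 fold change -0.35 with SE 0.12 and adjusted p = 0.0213), and the libraries of the ages did not overlap in either genotype. Both calls were fragile: the rise was lost without wild-type 48 hpf replicate 3 or 72 hpf replicate 1 (adjusted p = 0.0794 and 0.14), and the fall without mutant-labelled 48 hpf replicate 1 or 72 hpf replicates 1 or 2 (adjusted p = 0.0511, 0.0937 and 0.0962). Under library totals alone the rise was 0.77 (adjusted p = 3.74e-05) and the fall -0.02 (adjusted p = 0.895). The medians of all genes on that scale were 0.41 and 0.32, so nars lay above the first and below the second. Taken within each library as a percentage of the summed CPM of the other cytosolic members, which no scaling changes, nars stood at 3.91, 4.10 and 3.94% in wild type and 4.85, 4.65 and 5.21% in mutant-labelled libraries at 48 hpf. At 72 hpf it stood at 5.09, 4.18 and 3.97% against 3.31, 3.30 and 4.35%. On this measure the genotypes separated at 48 hpf and overlapped at 72 hpf, the ages separated in mutant-labelled embryos, and they overlapped in wild type.

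**Figure D3:**
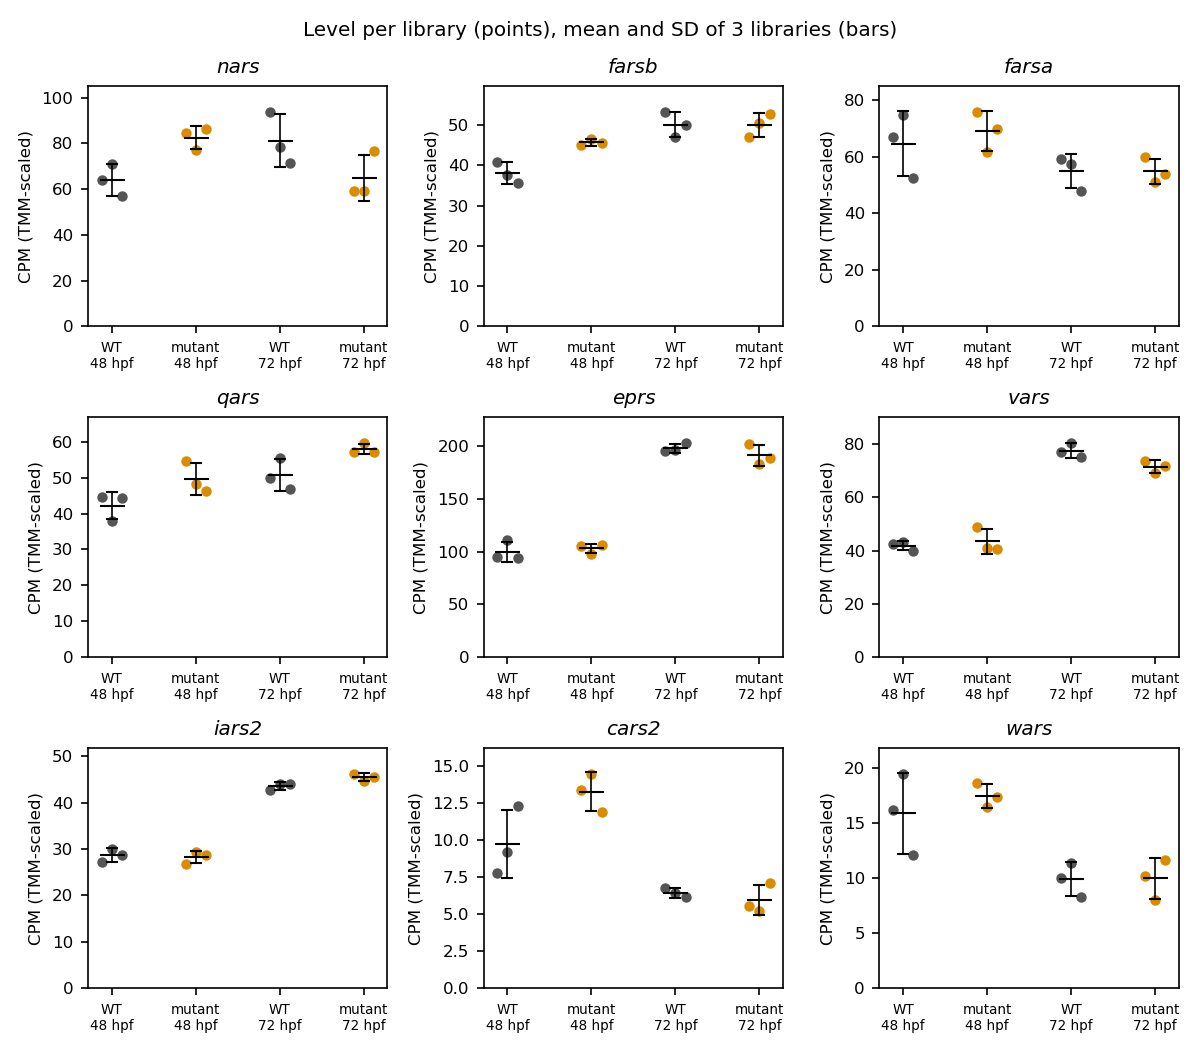
TMM-scaled CPM of 9 synthetase genes in every library, with wild-type libraries in grey, mutant-labelled ones in orange, and the mean and SD of 3 libraries as black bars. nars is higher in mutant-labelled embryos at 48 hpf and mostly lower at 72 hpf, eprs, vars and iars2 separate by age, and cars2 and wars fall with age.

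The age of the embryos moved many more members than genotype did, and in both directions. In wild type 14 of 35 members were higher at 72 hpf and 5 lower, or 40.0% and 14.3%, against 35.4% of all tested genes in each direction, so the share of lower calls among members was the smaller one. The libraries of the ages did not overlap for 15 members in the higher and 5 in the lower direction, against 37.2% and 36.1% of all genes. Of the cytosolic genes 10 were higher and 3 lower (median 0.20), and of the mitochondrial genes 4 and 2 (median 0.03), with a median over all genes of -0.02. The balance of rises and falls depends on the scaling. With library totals alone the median of all genes moved to 0.41, and 25 members were higher and 0 lower. On that scale 15124 genes were called, and their split by direction was not counted. Values below are relative to TMM scaling. The difference between the cytosolic and the mitochondrial median was 0.18, and 0.05 without wild-type 48 hpf replicate 3. Over 13 pairs of genes for the same amino acid, the median difference had the opposite sign (-0.17).

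The strongest rise was that of eprs, the joint enzyme for glutamate and proline. It stood at 95.1, 111 and 93.8 CPM in wild type at 48 hpf and 195, 196 and 203 CPM at 72 hpf (log2 fold change 0.98 with SE 0.09 and adjusted p = 6.51e-08). In mutant-labelled embryos it went from 105, 97.6 and 106 to 202, 183 and 189 CPM (log2 fold change 0.89 with SE 0.09 and adjusted p = 2.14e-07). The ages were far apart in both genotypes and the genotypes were not separated at either age. vars, the valine enzyme, rose from 42.4, 43.1 and 39.9 to 76.9, 80.5 and 75.0 CPM in wild type (log2 fold change 0.89 with SE 0.09 and adjusted p = 2.61e-07). In mutant-labelled embryos it rose from 49.0, 40.9 and 40.6 to 73.8, 69.0 and 71.9 CPM (log2 fold change 0.72 with SE 0.09 and adjusted p = 3.26e-06).

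The leucine genes behaved differently from each other. larsb rose from 30.4, 35.1 and 27.1 to 52.5, 55.2 and 51.0 CPM in wild type (log2 fold change 0.78 with SE 0.10 and adjusted p = 5.44e-06) and likewise in mutant-labelled embryos (0.72, adjusted p = 1.40e-05). larsa, its paralog, did not pass in either genotype (log2 fold changes 0.11 and -0.04, adjusted p = 0.546 and 0.833). The ratio of larsb to larsa counts went from 3.23, 2.90 and 3.26 to 5.07, 4.92 and 4.83 in wild type and from 2.70, 3.23 and 2.65 to 4.77, 4.78 and 4.73 in mutant-labelled embryos, with no overlap of the ages. How often ratios of other genes separate the ages was not counted. Reads shared between the paralogs could have been split by the counting, which was not tested. rars, gars and cars, the arginine, glycine and cysteine enzymes, also rose in both genotypes, by 0.65, 0.50 and 0.40 in wild type and 0.42, 0.31 and 0.40 in mutant-labelled embryos (adjusted p from 3.14e-05 to 0.0105). farsb, tars and qars were called in wild type (0.40, 0.32 and 0.26, adjusted p = 0.000906, 0.00474 and 0.0264) and not in mutant-labelled embryos (0.13, 0.11 and 0.22), and the difference of the effects did not pass for any of them (adjusted p = 0.496, 0.621 and 0.957).

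The falls were led among cytosolic genes by wars, the tryptophan enzyme, which went from 16.2, 19.5 and 12.1 to 10, 11.4 and 8.34 CPM in wild type (log2 fold change -0.68 with SE 0.18 and adjusted p = 0.00262). In mutant-labelled embryos it went from 18.7, 16.5 and 17.4 to 10.2, 8.05 and 11.7 CPM (log2 fold change -0.82 with SE 0.18 and adjusted p = 0.000616). Every library at 72 hpf lay below every one at 48 hpf of its genotype. Under library totals the wild-type value of wars was -0.25 (adjusted p = 0.208). hars, a histidine enzyme of uncertain compartment, and sars, the serine enzyme, had smaller falls in wild type (-0.30 and -0.28, adjusted p = 0.00783 and 0.0147) that turned to 0.13 and 0.16 under library totals, below the median of all genes on that scale. The sars call was also lost without wild-type 48 hpf replicate 2 or 72 hpf replicate 1 (adjusted p = 0.059 and 0.0533). In mutant-labelled embryos hars and sars fell by 0.42 and 0.26 (adjusted p = 0.000703 and 0.0198), and iars by -0.36 (adjusted p = 0.00493), where its wild-type value was -0.09 (adjusted p = 0.428). Under library totals hars and iars had -0.09 and -0.03 in mutant-labelled embryos (adjusted p = 0.378 and 0.786).

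The subunit genes of the phenylalanine enzyme changed differently with age, and the ratio of farsb to farsa rose. In wild type farsb rose while farsa had a log2 fold change of -0.23 (SE 0.13, adjusted p = 0.115), with the opposite sign when library totals alone were used (0.20) and a call without wild-type 48 hpf replicate 3 (-0.36, adjusted p = 0.0133). In mutant-labelled embryos farsa fell (-0.33 in log2, adjusted p = 0.0298), a call lost under library totals (-0.01) and without mutant-labelled 48 hpf replicate 1 or 72 hpf replicates 2 or 3 (adjusted p = 0.104, 0.11 and 0.0781). The ratio of farsb to farsa counts does not depend on the scaling. It went from 0.613, 0.503 and 0.681 to 0.900, 0.819 and 1.04 in wild type, and from 0.592, 0.755 and 0.652 to 0.785, 0.994 and 0.981 in mutant-labelled embryos. The ages did not overlap in either genotype, and the genotypes overlapped at both ages. How often ratios of other genes separate the ages was not counted.

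**Figure D4:**
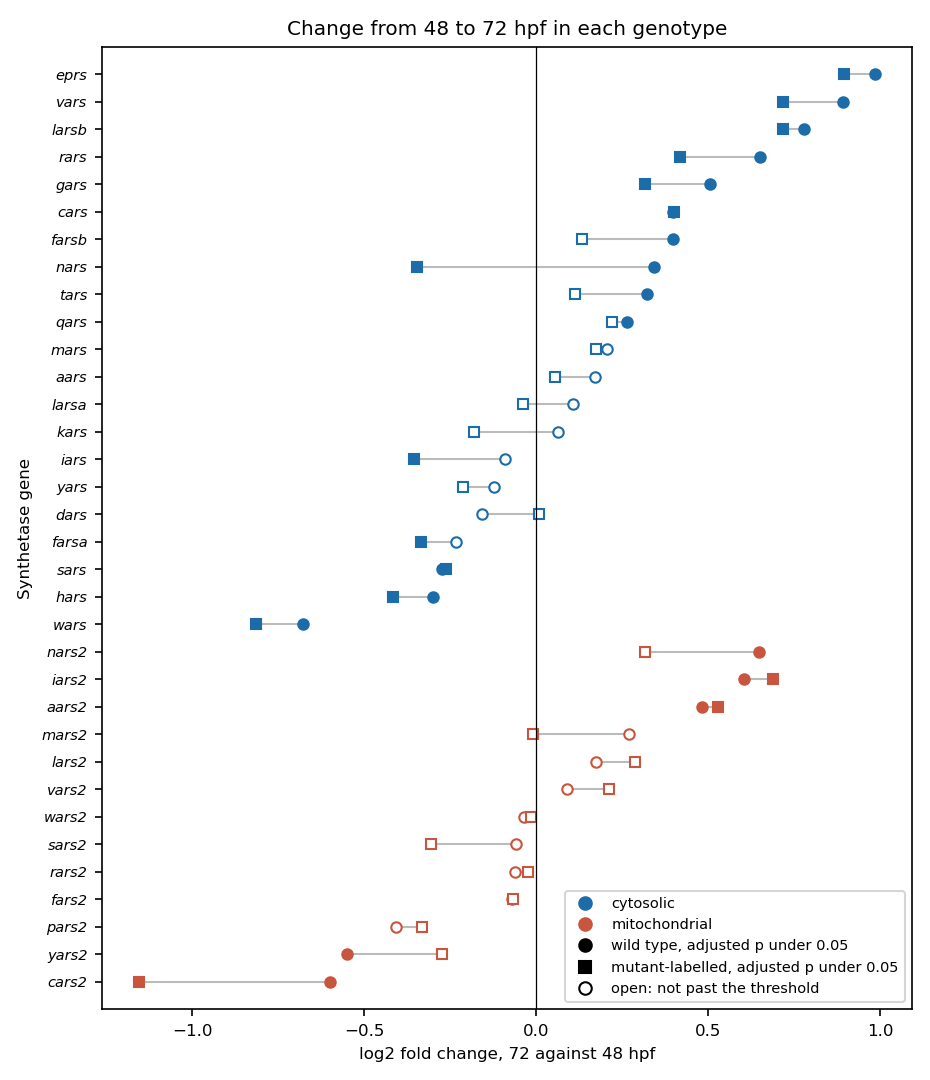
Log2 fold change from 48 to 72 hpf of the synthetase genes, all but 1 of the mitochondrial ones drawn, in wild-type (circles) and mutant-labelled embryos (squares), joined by a grey line, on the TMM scale. Filled symbols passed at adjusted p under 0.05, blue genes are cytosolic and red ones mitochondrial; nars is the single gene with filled symbols on opposite sides of 0.

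Among the mitochondrial enzymes, iars2 for isoleucine had the smallest p of the rises. It went from 27.3, 30.1 and 28.7 to 42.6, 44.1 and 44.1 CPM in wild type (log2 fold change 0.60 with SE 0.08 and adjusted p = 8.75e-06). In mutant-labelled embryos it went from 26.8, 29.4 and 28.6 to 46.2, 44.6 and 45.6 CPM (log2 fold change 0.69 with SE 0.08 and adjusted p = 2.24e-06). The replicates were close together and the ages far apart. nars2 for asparagine had the largest mitochondrial rise in wild type, from 3.24, 2.99 and 1.94 to 5.25, 3.70 and 3.82 CPM (log2 fold change 0.65 with SE 0.24 and adjusted p = 0.0264). That call was lost without wild-type 48 hpf replicate 3 or 72 hpf replicate 1 (adjusted p = 0.109 and 0.14) and in the fit of only the 6 wild-type libraries (adjusted p = 0.0516). aars2, for alanine, rose by 0.48 in wild type (adjusted p = 0.018) and by 0.53 in mutant-labelled embryos (adjusted p = 0.0114). The mutant-labelled call of aars2 was lost without 48 hpf replicate 2 (adjusted p = 0.0538).

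cars2 fell in both genotypes. It went from 7.77, 9.24 and 12.3 to 6.76, 6.44 and 6.14 CPM in wild type (log2 fold change -0.60 with SE 0.17 and adjusted p = 0.00599), a call that ended without wild-type 48 hpf replicate 3 (-0.39, adjusted p = 0.0522) and under library totals (-0.17, adjusted p = 0.4). In mutant-labelled embryos it went from 13.4, 14.5 and 11.9 to 5.57, 5.21 and 7.14 CPM (log2 fold change -1.15 with SE 0.17 and adjusted p = 1.96e-05), the largest fall of any member there. yars2 for tyrosine had -0.55 in wild type (adjusted p = 0.0363), with overlapping ages and a call lost in DESeq2, limma-voom and when any of 4 wild-type libraries was left out. A further 8 mitochondrial members, for methionine, tryptophan, arginine, proline, valine, leucine, phenylalanine and serine, passed in neither genotype.

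In mutant-labelled embryos 8 members were higher at 72 hpf and 7 lower, against 35.7% and 34.4% of all genes. The libraries did not overlap for 11 members in the higher and 10 in the lower direction, against 37.6% and 36.6% of all genes. With library totals alone these counts were 18 and 2, and the median of all genes was 0.32. Of the cytosolic genes 6 were higher and 6 lower (median 0.05), and of the mitochondrial genes 2 and 1 (median -0.01). Without mutant-labelled 48 hpf replicate 1, 4 members were lower. Of all 35 members, 8 were called higher in both genotypes, 4 lower in both, 1 in opposite directions, 6 in wild type alone and 2 in mutant-labelled embryos alone, and 14 in neither. The shares of all genes in these classes were not counted. Of 21068 tested genes, 14918 were called with age in wild type and 14785 in mutant-labelled embryos. The difference of the effects did not pass for any member in edgeR.

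For 13 amino acids the cytosolic and the mitochondrial gene could be set side by side, with farsa and larsb as the cytosolic gene of phenylalanine and leucine. In wild type the log2 fold change with age, sign included, was higher for the cytosolic gene in 5 pairs and for the mitochondrial gene in 8. The median difference over the pairs was -0.17, opposite in sign to the 0.18 between the medians of all members. Only for asparagine were both genes called higher, and both calls were lost without wild-type 48 hpf replicate 3 or 72 hpf replicate 1. Cysteine was called in opposite directions in both genotypes, with cars higher and cars2 lower. The wild-type call of cars2 was lost under library totals alone and without 48 hpf replicate 3. The ratio of cars to cars2 did not overlap between the ages in either genotype. Isoleucine showed the reverse pattern in mutant-labelled embryos, where iars fell and iars2 rose, although the fall of iars was lost under library totals alone (-0.03, adjusted p = 0.786). The ratio of cytosolic to mitochondrial CPM went up without overlap of the ages in 4 wild-type pairs (arginine, valine, leucine and cysteine) and down in 4, among them tryptophan, isoleucine and alanine. Between the genotypes at 48 hpf, the cytosolic gene had the higher value in 9 of 13 pairs (median difference 0.17), and at 72 hpf in 6 (median difference -0.02). At 48 hpf the ratio was higher in mutant-labelled embryos without overlap in 1 pair, isoleucine, and lower in 3, among them cysteine and serine. At 72 hpf it separated the genotypes in 0 pairs. These counts depend on the genes chosen for phenylalanine and leucine. With larsa for leucine the ratio was higher in mutant-labelled embryos without overlap at both ages, and with farsb for phenylalanine at 48 hpf. With age in wild type, the cytosolic minus the mitochondrial change was 0.47 with farsb and -0.17 with farsa. It was -0.06 with larsa and 0.61 with larsb.

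Summed over members, cytosolic synthetases made up 1670 ± 148 CPM in wild type against 1770 ± 53.5 CPM in mutant-labelled libraries at 48 hpf (SD, n = 3 each), and 1920 ± 43.9 and 1850 ± 7.47 CPM at 72 hpf. Mitochondrial ones made up 113 ± 4.23 and 116 ± 1.14 CPM, then 131 ± 2.60 and 131 ± 3.76 CPM. The cytosolic sums of the genotypes overlapped at 48 hpf, while at 72 hpf the lowest wild-type sum (1870.3 CPM) lay above the highest mutant-labelled one (1852.6 CPM). The ratio of the sums stood at 14.7 ± 1.14, 15.2 ± 0.321, 14.7 ± 0.265 and 14.1 ± 0.503 in the same order. A sum gives most weight to the genes with the most counts. The median over the cytosolic genes of log2 CPM centred per gene overlapped between the genotypes at 72 hpf. It was 0.0567 ± 0.0623 in wild type and 0.0709 ± 0.0269 in mutant-labelled libraries.

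The scaffold genes aimp2, aimp1b and aimp1a of the synthetase complex fell with age. aimp2 went from 124, 145 and 109 to 45.3, 41.8 and 39.7 CPM in wild type (log2 fold change -1.57 with SE 0.11 and adjusted p = 2.35e-09), and aimp1b from 47.7, 77.8 and 47.1 to 15.2, 13.8 and 12.2 CPM (log2 fold change -2.06 with SE 0.18 and adjusted p = 3.43e-08). aimp1a (-0.68) and dtd2 (-0.84), which removes wrongly attached amino acids, also fell (adjusted p = 7.85e-06 and 0.00206). In mutant-labelled embryos aimp2, aimp1b, aimp1a and dtd2 fell by 1.36, 2.22, 0.64 and 1.05 (adjusted p from 1.46e-08 to 0.000409). eef1e1, the remaining scaffold, had -0.00 in wild type (adjusted p = 0.985). Under library totals alone aimp2, aimp1b and aimp1a still fell in wild type (-1.14, -1.63 and -0.25), while dtd2 did not pass (-0.40, adjusted p = 0.106). Of the 7 measured genes of this list 4 fell in each genotype, and 1 rose in wild type and 0 in mutant-labelled embryos. The share that fell was 57.1% in each genotype, against 35.4% of all genes in wild type and 34.4% in mutant-labelled embryos. Of the 9 enzymes in the complex itself, 4 rose and 0 fell in wild type (median 0.20), and 3 rose and 1 fell in mutant-labelled embryos (median 0.17). The share of these enzymes that rose, 44.4% and 33.3%, was near that of all genes (35.4% and 35.7%). The share that fell, 0% and 11.1%, was below that of all genes (35.4% and 34.4%). Between the genotypes 0 scaffold or editing genes passed at either age (smallest adjusted p at 48 hpf: aimp2, -0.30, adjusted p = 0.137), with 1 higher and 1 lower at 48 hpf before adjustment (p under 0.05) and 0 of each at 72 hpf. Of all genes 7.94% were higher and 9.41% lower before adjustment at 48 hpf, and 3.67% and 4.08% at 72 hpf.

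Of the 6 other tRNA charging genes 1 passed between the genotypes, tarsl2, which encodes a threonine enzyme related to tars. It stood at 9.48, 9.04 and 9.13 CPM in wild type against 13.0, 11.2 and 13.0 CPM in mutant-labelled libraries at 48 hpf, without overlap (log2 fold change 0.43 with SE 0.11 and adjusted p = 0.0476). Of all tested genes 1.04% were called higher at 48 hpf, and 7.69% were higher without overlap. The call of tarsl2 was lost in all 12 fits that left out 1 library (adjusted p from 0.0521 to 0.132), with log2 fold changes from 0.39 to 0.50. At 72 hpf the value was -0.01 (adjusted p = 0.998). tarsl2 rose with age in both genotypes, with log2 fold changes of 1.3 and 0.87 (adjusted p = 1.75e-08 and 1.80e-06). gatc, of the GatCAB amidotransferase, fell with age in both (-0.50 and -0.51, adjusted p = 0.000691 and 0.000715), as did mtfmt, which formylates mitochondrial initiator methionine (-0.60 and -0.56, adjusted p = 0.00262 and 0.00382). gatb fell in wild type (-0.41, adjusted p = 0.0173). Under library totals alone none of these 3 passed in either genotype, and gatb had 0.02 in wild type. On the TMM scale 2 of the 6 genes rose and 3 fell with age in wild type, against 35.4% of all genes in each direction. In mutant-labelled embryos 1 rose and 2 fell, against 35.7% and 34.4%.

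Between the genotypes, 0 of 10 mitochondrial translation factors and 0 of 37 tRNA maturation and export genes passed at either age in edgeR with TMM scaling, and with library totals alone 1 translation factor was called higher at 48 hpf. Taken before adjustment, at p under 0.05, 3 of the former were higher and 0 lower at 48 hpf and 0 and 1 at 72 hpf, and 0 of the latter were higher and 5 lower at 48 hpf and 0 of each at 72 hpf. Of all genes 7.94% were higher and 9.41% lower at 48 hpf by that rule, and 3.67% and 4.08% at 72 hpf. The smallest p at 48 hpf were those of tsfm, an elongation factor (0.49, adjusted p = 0.0679), and trmt5, a tRNA methyltransferase (-0.54, adjusted p = 0.0873). At 72 hpf the translation factor list had its smallest p in mtrf1l, a release factor gene (-0.69, adjusted p = 0.121). With age in wild type 3 of the translation factors rose and 1 fell, and 8 tRNA maturation genes rose and 15 fell, where 35.4% of all genes passed in each direction. The shares that rose were 30% and 21.6%, and those that fell 10% and 40.5%. With library totals alone these counts were 6 and 0, and 15 and 3, where the median of all genes was 0.41. The changes included guf1 (0.68, adjusted p = 0.000962), gfm1 (0.52, adjusted p = 0.00124), rtcb, the tRNA ligase (0.94, adjusted p = 6.94e-07), and tufm (-0.30, adjusted p = 0.0238), which had 0.12 under library totals.

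Genes of the amino acid response that ATF4 controls in mammals were mostly below 0 between the genotypes at 48 hpf, with 9 of 30 above 0 against 49.5% of all genes, and 1 passed. Of the 30, 1 was lower and 0 higher at 48 hpf (median -0.06), and 0 were called at 72 hpf (median -0.03). Before adjustment 3 were higher and 5 lower at 48 hpf and 0 and 3 at 72 hpf, at p under 0.05. Of all genes 7.94% were higher and 9.41% lower at 48 hpf by that rule, and 3.67% and 4.08% at 72 hpf. After adjustment 1.04% of all genes were called higher and 2.0% lower at 48 hpf, and 0.133% and 0.422% at 72 hpf. With library totals alone 1 of the 30 was higher and 0 lower at 48 hpf (median 0.03), namely pycr1b (0.42, adjusted p = 0.0376). The median of all genes was 0.09 on that scale, above that of the list. There pycr1b was also lower in the difference of the effects (-0.70, adjusted p = 0.043), where the median of all genes was -0.09. The called gene was nupr1a, a stress-induced chromatin protein gene, at 73.5, 105 and 93.2 CPM in wild type against 47.2, 67.4 and 56.3 CPM in mutant-labelled libraries (log2 fold change -0.67 with SE 0.16 and adjusted p = 0.0368), without overlap. The call was lost in 7 of 12 fits that left out 1 library (highest adjusted p = 0.15) and under library totals alone (-0.58, adjusted p = 0.0519). atf4a itself had -0.04 at 48 hpf and -0.13 at 72 hpf (adjusted p = 0.877 and 0.844). asns, which makes the asparagine that nars charges, stood at 19.3, 24.2 and 15.8 against 28.7, 21.7 and 27.9 CPM at 48 hpf, with overlap (log2 fold change 0.40 with SE 0.14 and adjusted p = 0.137), and had 0.06 at 72 hpf (adjusted p = 0.988). atf4a and asns were named after their values were seen. With age in wild type 16 of the 30 rose and 8 fell (53.3% and 26.7%), against 35.4% of all genes in each direction. In mutant-labelled embryos 17 rose and 10 fell (56.7% and 33.3%), against 35.7% and 34.4%. The changed genes included the amino acid transporter genes slc3a2b and slc7a3a, higher by 2.27 and 2.84 in wild type (adjusted p = 5.02e-12 and 5.50e-11), and slc7a5, with a log2 fold change of -3.36 (adjusted p = 3.21e-10).

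Markers of the tissues in a whole embryo were measured alongside, and 107 of 110 listed symbols were found. Where a symbol was shared by more than 1 gene, each gene was counted. The 14 symbols of proliferating cells thus gave 15 genes, the 16 of skeletal muscle 17 and the 8 of embryonic blood 9. At 48 hpf, where the cytosolic synthetases leaned upward, 12 of 12 neuron genes were above 0 and 3 were called higher, with summed levels of 724 to 839 CPM in wild type and 853 to 1150 CPM in mutant-labelled libraries. Of 9 lens genes 9 were above 0 and 2 called higher (580 to 1430 against 1130 to 1660 CPM). Genes of proliferating cells had 10 of 15 above 0 and 0 called (2000 to 2230 against 2130 to 2450 CPM). Of 17 skeletal muscle genes 6 were above 0 and 0 called (79900 to 137000 against 98400 to 114000 CPM). Hepatocyte genes had 2 of 16 called lower, enterocyte genes 2 of 12, exocrine pancreas genes 1 of 18 and embryonic blood genes 1 of 9. Of all tested genes 1.04% were called higher and 2.0% lower at 48 hpf, and 49.5% were above 0. At 72 hpf 18 of 18 exocrine pancreas genes were below 0 with 0 called (562 to 748 against 424 to 572 CPM), and 5 of 12 enterocyte genes were called lower. Of 17 skeletal muscle genes 16 were above 0 with 0 called, and their summed levels did not overlap (37300 to 44200 against 46200 to 56400 CPM). Of 16 hepatocyte genes 14 were above 0 and 1 called higher (3080 to 4380 against 4110 to 4820 CPM), and of 15 genes of proliferating cells 1 was called higher and 1 lower. Of all tested genes 0.133% were called higher and 0.422% lower at 72 hpf, and 53.0% were above 0. With age in wild type all 15 genes of proliferating cells had negative values, 11 of 12 neuron genes and 9 of 9 lens genes were above 0, and 9 of 9 embryonic blood genes were below 0. Of the skeletal muscle genes 13 of 17 were called lower with age and 2 higher. In wild type 35.4% of all tested genes were called in each direction with age. At 0 counts in at least 1 group were 7 markers, of exocrine pancreas, hepatocytes and enterocytes. The part of these tissues in the synthetase values was not tested.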

How the data were processed

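RNA was measured in 12 libraries of embryos, 3 in each of 4 groups. The authors deposited 1 table of counts, whole numbers for each Ensembl gene and library that were not normalized, beside gene symbols. Per the submitters' processing notes, STAR, featureCounts, DESeq2 and the build GRCz11 were used; the sources used here give neither their versions and roles nor the annotation and the strand setting. Overlapping genes and antisense partners may therefore share reads. The tests used edgeR 4.0.16 (R 4.3.3): filterByExpr with minimum count 10, TMM factors, 1 quasi-likelihood model of all 12 libraries with a coefficient per group, and Benjamini-Hochberg adjustment over 21068 genes, called at adjusted p under 0.05. Every adjusted p is from this test unless another tool is named (DESeq2 1.42.0, limma 3.58.1). CPM are TMM-scaled.

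The steps were tested on simulated counts. The members and lists were chosen with earlier results of these data known, and members are described by counts and medians, with no test of the list. Full values are given for called members or the 4 of smallest p in each genotype comparison, up to 3 rises and 3 falls per compartment with age, farsa and farsb, and up to 4 called members of each pathway list. The 13 other lists (5 of pathways, 8 of tissues) held 206 symbols, 198 of them found. The values of 1 mitochondrial member are not reported here, and it stays in the counts, medians and sums. Alternatives were another scaling, tool, filter or set of libraries, the replicate number as a block, and leaving out each library. Replicate pairs differed by more than sampling noise (chi-square over its degrees of freedom, 4.35 to 53.2). A count of 3 was worth 0.151 to 0.216 CPM. Of 35 members 32 were found in the RefSeq table of another build (GRCz12tu), and of these rars2 shares a chromosome with mycn. The 3 not found were larsb, nars and larsa, so their place relative to mycn was not looked up.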

Additional observations from a re-analysis of the deposited data

Results flagged for a closer look

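nars was picked out because every wild-type library at 72 hpf lay above every one at 48 hpf while every mutant-labelled library at 72 hpf lay below every one at 48 hpf. How many of all genes show this pattern was not counted. The nearest libraries were close, at 71.4 CPM (72 hpf) and 70.8 CPM (48 hpf) in wild type, and 76.6 and 76.9 CPM in mutant-labelled embryos. As a percentage of the other cytosolic members, the wild-type ages overlapped. Under library totals alone the mutant-labelled change of nars with age was -0.02 (adjusted p = 0.895), where the median of all genes was 0.32. The difference of the genotype effects was -0.69 on the log2 scale (SE 0.18), and its test gave adjusted p = 0.116 in edgeR, 0.0347 in DESeq2 and 0.1 in limma-voom. Over the edgeR fits that left out 1 library each it ranged from -0.82 to -0.57, with adjusted p from 0.0435 to 0.306. Groups of 3 libraries are too small for a test of single outlying samples.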

How the results depend on the processing

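Of 24 age changes of named members that passed, 12 passed under every alternative and 12 were lost under at least 1. Library totals alone moved most: they called 1 member higher at 48 hpf, 25 higher and 0 lower with age in wild type, and 18 and 2 in mutant-labelled embryos, and turned hars, sars and farsa in wild type to 0.13, 0.16 and 0.20. The scale itself moves there, since the median of all genes went to 0.41 and 0.32 with age. Between the genotypes at 48 hpf it went to 0.09. The shares of all genes called in each direction were not counted on that scale. DESeq2 called 1 member lower in the difference of the genotype effects.

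The values of farsa and farsb at 72 hpf lay close to 0 and turned sign with DESeq2-type size factors (0.0041 and 0.0051), DESeq2 (0.0035 and 0.0039), a minimum count of 30 (1e-04 and 0.0012) and, for farsa, limma-voom (7e-04). Leaving out each library in turn gave -0.0893 to 0.0569 for farsa and -0.0454 to 0.0462 for farsb at 72 hpf, -0.0236 to 0.218 for farsa at 48 hpf, -0.0187 to 0.102 for farsa and -0.0444 to 0.0818 for nars averaged over the ages, and -0.232 to 0.0099 for farsa in the difference of the effects.

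Over the same fits, members called higher ranged from 0 to 1 at 48 hpf, and members called lower in the difference of the effects from 0 to 1. With age 11 to 14 were higher and 4 to 5 lower in wild type, and 6 to 10 and 4 to 8 in mutant-labelled embryos. The cytosolic minus the mitochondrial median ranged from 0.0382 to 0.18 at 48 hpf, from -0.008 to 0.0623 at 72 hpf, from 0.049 to 0.252 with age in wild type and from -0.0824 to 0.102 in mutant-labelled embryos. The causes were not tested. The scalings of the pathway genes, the other place of hars and the fits of tarsl2 and nupr1a without each library were chosen after seeing the data.

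Same-numbered libraries did not deviate together (correlations from -0.243 to 0.034 over 18 pairs, 0 over 0.1), so the numbers were not taken as pairs. With the replicate number as a block, farsa and farsb at 72 hpf had 0.0019 and 1e-04, yars2 in wild type lost its call (-0.54, adjusted p = 0.0562), and 438 genes were called at 48 hpf and 74 at 72 hpf, against 641 and 117 without the block. Genes called at 48 and 72 hpf were 1016 and 248 in DESeq2, 597 and 195 in limma-voom, and 74 and 793 in fits of only the 6 libraries compared. For the difference of the effects, the counts were 99 in edgeR, 253 in DESeq2, 175 with no filter and 59 with the block, and averaged over the ages 436 in edgeR and 745 in DESeq2.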

Other observations

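EARS2, the mitochondrial glutamate enzyme, has a symbol in capitals and so fell outside the rule. It stood at 12.8, 10.9 and 16.3 CPM in wild type and 12.2, 13.4 and 11.5 CPM in mutant-labelled libraries at 48 hpf, and at 10.2, 10.7 and 9.80 against 8.36, 9.70 and 7.26 CPM at 72 hpf. It did not pass between the genotypes at either age (log2 fold changes -0.11 and -0.28, adjusted p = 0.77 and 0.775), although all mutant-labelled libraries lay below all wild-type ones at 72 hpf. Of all genes 9.14% were lower without overlap at 72 hpf. With age EARS2 fell in wild type and in mutant-labelled embryos (-0.38 and -0.55, adjusted p = 0.0342 and 0.00537).

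pycr1b, a proline synthesis gene on the amino acid response list, was named after its values were seen. Its genotype effects had the same signs as those of nars at each age, but unlike nars it did not rise with age in wild type. It stood at 62.5, 65.3 and 51.7 CPM in wild type and 81.0, 75.6 and 68.7 CPM in mutant-labelled libraries at 48 hpf, and at 51.8, 56.8 and 47.0 against 43.8, 40.6 and 44.8 CPM at 72 hpf. The genotypes did not overlap at either age, in opposite directions. Of all genes 7.69% were higher without overlap at 48 hpf and 9.14% lower at 72 hpf. The difference of the effects was -0.60 (SE 0.15, adjusted p = 0.112), and -0.70 under library totals alone (adjusted p = 0.043).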
